A study of Mus musculus with 24 samples.

Results

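The 18-nt CCA-ending fragments are read as pieces cut from the 3′ end of mature transfer RNA, although the rule below uses the letters alone. In the deposited table of tRNA-derived fragments (tRFs) they are the rows whose sequence is 18 nt long and ends in CCA, which are the rows whose name begins with tRF-18- and ends with D2. Of the 8456 tRFs listed, 67 met this rule, and they held 196182 of the 833071 tRF counts (23.5%). A total of 26 had 100 or more counts over the 24 libraries and are described singly. These 26 carried 99.7% of the fragments' counts. The other 41 summed to 591 counts, with totals of 1 to 91. Membership used only the name and not the measured values.

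A transfer RNA is trimmed at its 3′ end and then receives the bases CCA from a dedicated enzyme. A fragment whose last bases are this added tail therefore comes from a tRNA that has passed this step. The letters CCA can also stand inside a tRNA, and the name does not tell these cases apart. A cut in the T loop releases the 3′ end as a short fragment, and fragments of this class occur in 2 main lengths, 18 and 22 nt. Short 3′ fragments have been found bound to Argonaute proteins, which carry microRNAs, and have been studied as regulators of messenger RNAs, retroelements and ribosomal protein synthesis. Liver makes much of the protein of blood plasma and translates at a high rate.

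Small RNA was sequenced from the livers of C57Bl/6J mice in 3 groups of 8 libraries. AM132 were mice made obese by 11 weeks of high fat diet (Harlan Teklad) and injected intravenously with 3.3 mg/kg of a locked nucleic acid (LNA) oligonucleotide of 16 bases against miR-132 on 3 consecutive days. AM608 were obese mice on the same diet and schedule, given an LNA oligonucleotide of 15 bases against miR-608, a primate microRNA that serves as the control target. RCD were lean mice on regular chow that were not injected, so diet, body weight and injection cannot be told apart in a comparison with them. Livers were taken 7 days after treatment. Hypothalamus samples of the study were not analysed here. The labels number the libraries of each group 1 to 8 without saying what a number stands for, and do not state that each library is a separate animal, so p-values measure the spread between these libraries.

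Sequences of the 9 most counted fragments are shown with tRF-18-HRH7MSD2, the fragment with the widest called difference, because these 10 carry most of the counts and include both called fragments. They were decoded from the deposited names and are written 5′ to 3′ as DNA letters, with the CCA tail in capitals.
tRF-18-8R6Q46D2: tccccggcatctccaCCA
tRF-18-8R6546D2: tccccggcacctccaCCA
tRF-18-HR0VX6D2: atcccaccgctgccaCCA
tRF-18-H9R8B7D2: atctcggtggaacctCCA
tRF-18-HSRVK7D2: atccgggtgccccctCCA
tRF-18-BS68BFD2: aaccgggcggaaacaCCA
tRF-18-YSQSD2D2: ttccggctcgaaggaCCA
tRF-18-H7PU4HD2: atcctgccgactacgCCA
tRF-18-HSQSD2D2: atccggctcgaaggaCCA
tRF-18-HRH7MSD2: atcccatcctcgtcgCCA
In all 10, base 3 is C. In standard tRNA numbering an 18-nt fragment that ends at base 76 begins at base 59, inside the T loop, and its base 3 is base 61 of the tRNA, the C that closes the T stem in nearly all tRNAs. C stood at base 3 in all 26 fragments of 100 or more counts, in 61 of the 67 fragments (91.0%) and in 21.2% of the 885 other 18-nt tRFs. Some low fragments end in a CCA that is not the added tail. The fragments tRF-18-LEK5LYD2 and tRF-18-2MK827D2, with 1 count each and A at base 3, are examples. They lie inside the 22-nt tRFs tRF-22-WB863IP52 and tRF-22-8EKSP1852, before the final CCA of these.

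The base before the CCA tail, base 15 of the fragment and base 73 of the tRNA, is the discriminator that many aminoacyl-tRNA synthetases read. It was A in 14 of the 26 fragments, which held 77.5% of their counts, G in 7 with 7.41% and T in 5 with 15.1%. No fragment of the 26 had C there. Bases 2 to 8, the stretch that acts as the seed in a microRNA, took 18 forms among the 26, and 6 of these were shared, by 14 fragments. Seed CCCCGGC was shared by the 2 most counted fragments, and TCCCACC by tRF-18-HR0VX6D2, tRF-18-HR0P1SD2, tRF-18-SR0P1SD2 and tRF-18-HR0ZMSD2. Of the 18 forms, 2 were also the seed of a mature mouse microRNA in RefSeq's list of 1738: TCTCGGT of tRF-18-H9R8B7D2 in miR-678, and CCCTGCT of tRF-18-07QSNHD2 in miR-7017-3p. A shared seed is a match of letters and shows no target.

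RefSeq's GRCm38 annotation lists 430 tRNA genes. For 10 of the 67 fragments, 9 of them among the 26, bases 1 to 15 matched the exact 3′ end of a gene whose end lay in a RefSeq promoter window or a GENCODE transcript of GRCm38, at 12 genes in all, and these fragments held 37.8% of the 67 fragments' counts. The added CCA tail is not encoded at the end of the genes, so only these 15 bases can match. The match of tRF-18-8R6546D2 is the alanine gene n-TAagc16 (anticodon AGC, chr13:21222586-21222657, plus strand). The leucine gene n-TLaag4 (AAG, chr7:120917517-120917598, plus strand) ends in tRF-18-HR0VX6D2, and the valine gene n-TVcac9 (CAC, chr13:23446142-23446214, minus strand) ends in tRF-18-BS68BFD2. The fragment tRF-18-H7PU4HD2 ends 3 serine genes, n-TSaga9 on chromosome 4 and n-TStga1 and n-TStga2 on chromosome 13. A different serine gene, n-TSgct5 (GCT, chr13:22050686-22050767, minus strand), ends in tRF-18-HRH7MSD2. Further matches were a glycine gene for tRF-18-YRRHQFD2 (n-TGccc7, chromosome 17), a threonine gene for tRF-18-HRF8X7D2 (n-TTagt9, chromosome 7), and arginine genes for tRF-18-HR0P1SD2 (n-TRtct4, chromosome 11) and tRF-18-S7PVRSD2 (n-TRtcg5, chromosome 7). Many tRNA genes share an end, so a match names one possible parent. None of the 67 matched the end of the 22 mitochondrial tRNAs. From textbook tRNA sequences, which were not checked against a reference here, tRF-18-8R6Q46D2 ends alanine tRNA, tRF-18-H9R8B7D2 glutamine tRNA, tRF-18-HSRVK7D2 cysteine tRNA, tRF-18-YSQSD2D2 and tRF-18-HSQSD2D2 tyrosine tRNA, tRF-18-4RRWRBD2 glutamate tRNA and tRF-18-B689XXD2 the initiator methionine tRNA.

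Libraries held 20580 to 80578 tRF counts, beside 5689143 to 8734721 microRNA counts. Levels are given as CPM, which are counts per 1000000 after TMM scaling of the library's sum over the 295 tRFs that passed the low-count filter. AM132 library 8 stood apart: it had the most tRF counts, and the 295 tested tRFs held 48.4% of them, against 86.9 to 90.4% in the other 23 libraries. RCD library 3 also stood apart, with a summed level of 11 neuronal microRNAs of 4270 CPM of the microRNA table against 359.8 to 630.3 elsewhere, and the highest sums of the muscle, erythroid, leukocyte and mesenchymal lists. The 6 hepatocyte microRNAs listed differed in level between the groups: they summed to 503297 to 643855 CPM in AM132 (median 553614), 329281 to 507821 in AM608 (median 400952) and 267825 to 551350 in RCD (median 464891). This list's part in the results, including those scaled to microRNA counts, was not tested. Over all libraries, miR-122-5p, the main liver microRNA, had 118011 to 332157 CPM. The neuronal and other markers' part in the results was not tested, and the calls that changed without these libraries are given with each comparison. In bulk liver, fewer cells that make a fragment and less of it per cell cannot be told apart. Single sequences also share reads with near-identical copies, and the rule that assigned reads is not given in the sources used here.

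Levels differed widely among the 26. The top fragment, tRF-18-8R6Q46D2, had 71370 counts and 36.4% of the counts of the 67, and with tRF-18-8R6546D2 (29509 counts) it reached 51.4%. These were the 2nd and 3rd most counted rows of the whole tRF table. The first 9 fragments held 92.6%, and 9 of the 20 most counted tRFs were 18-nt CCA-ending fragments. Of the 26, 25 had a count in each of the 24 libraries. Of the 41 fragments under 100 counts, 18 were 1 base away from one of the 26, at a median of 0.237% of its counts.

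**Figure D1:**
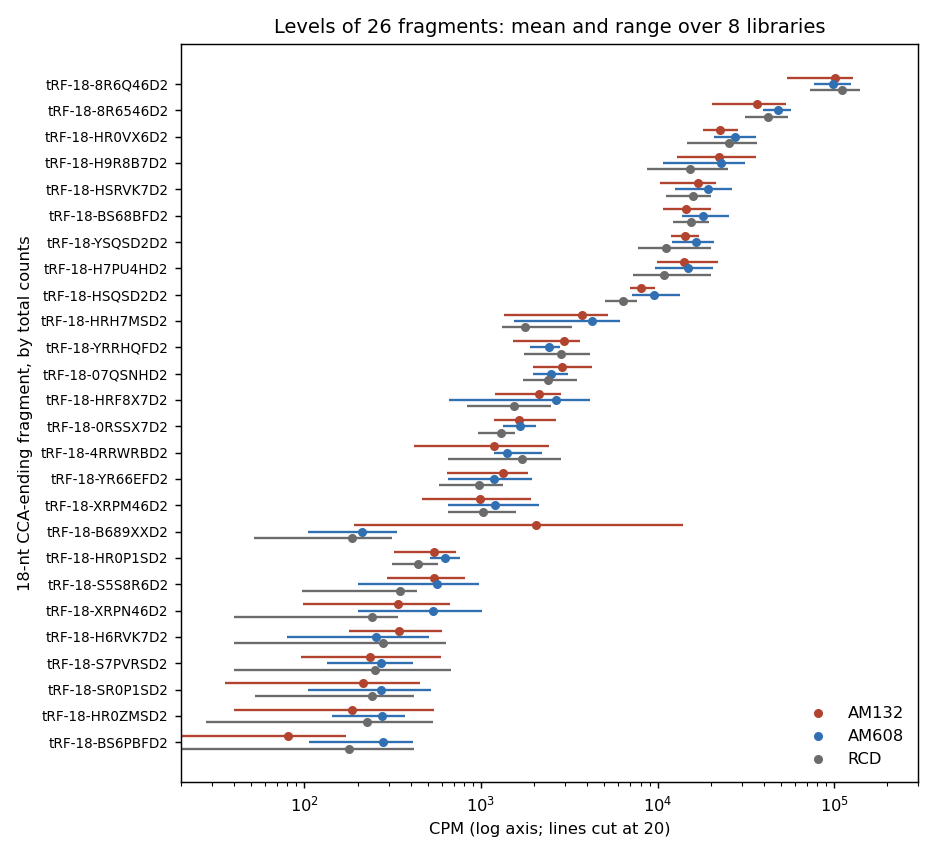
CPM (log axis) of the 26 fragments with 100 or more counts, ordered by total counts; points are means and lines run from the lowest to the highest of 8 libraries in AM132, AM608 and RCD. The top fragment has group medians of 95733 to 110472 CPM, and tRF-18-B689XXD2 has 1 AM132 library at 13937 CPM.

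As a share of all tRF counts, the 67 fragments took 24.3% ± 5.94 (SD, n = 8) in AM132, 26.4% ± 3.85 (SD, n = 8) in AM608 and 22.4% ± 3.87 (SD, n = 8) in RCD. Single AM132 libraries ran from 10.9 to 29.9%, AM608 libraries from 20.6 to 30.2% and RCD libraries from 17.7 to 28.9%, and all 3 ranges overlapped. AM132 library 8 gave the 10.9%, and AM132 held 26.2% ± 2.64 (SD, n = 7) without it. The mean log2 difference in this share was -0.16 for AM132 against AM608, 0.24 for AM608 against RCD and 0.08 for AM132 against RCD. Without AM132 library 8 the first of these was -0.003 and the third was 0.24. The third was also 0.42 when set against microRNA counts and -0.03 as a share of CCA-ending counts. Set against the microRNA counts of the same library, the fragments' counts per 1000000 microRNA counts were 1214 ± 188 (SD, n = 8) in AM132, 1323 ± 239 (SD, n = 8) in AM608 and 899.4 ± 81.8 (SD, n = 8) in RCD. On that scale the AM608 libraries (916.6 to 1630) overlapped the RCD libraries (738.7 to 991.2) only through AM608 library 7. The next lowest AM608 library had 1140. The log2 difference of AM608 against RCD was 0.54. All tRF counts together also differed on this scale: 5545 ± 2851 (SD, n = 8) in AM132, 5008 ± 592 (SD, n = 8) in AM608 and 4123 ± 832 (SD, n = 8) in RCD. The 0.54 is thus not particular to these fragments. No test is given for these sums, because the fragments were chosen with earlier results of these data known.

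**Figure D2:**
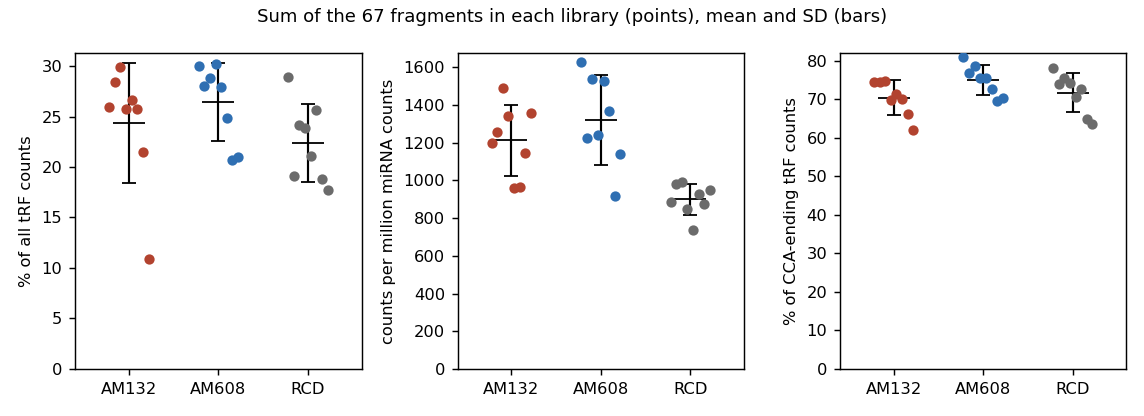
Sum of the 67 fragments in each library as a percentage of all tRF counts, in counts per 1000000 microRNA counts, and as a percentage of CCA-ending tRF counts; points are libraries, bars the mean and SD of 8. Groups overlap in all 3 panels, and the low AM132 point in the first panel is library 8 at 10.9%.

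The comparison of AM132 with AM608 asks what the oligonucleotide against miR-132 changed relative to the control oligonucleotide in obese liver. None of the 20 tested fragments was called by edgeR at an adjusted p under 0.05, where 5.08% of the 295 tested tRFs were called. DESeq2 and limma voom also called 0 of the 20, beside 17 and 5 of the 295 tested tRFs. An unadjusted edgeR p under 0.05 was reached by 1 of the 20, beside 60 of the 295. Estimates were below 0 for 16 of the 20, with a median log2 fold change of -0.20, beside -0.01 over all tested tRFs, of which 151 were below 0 and 144 above. They ran from -0.63 to 0.27. In 2 other settings most estimates were above 0. Scaled to the library's TMM-scaled microRNA counts, 12 of 20 estimates were above 0. Their median of 0.04 still lay below that of all tested tRFs (0.25). In libraries numbered 5 to 8 alone 15 of 23 estimates were above 0 (median 0.11, all tested tRFs 0.08). Set against raw microRNA totals, however, the sum of the 67 fragments had a log2 difference of -0.12.

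The leading alanine fragment tRF-18-8R6Q46D2 ran from 53733 to 127481 CPM in AM132 (median 104905) and from 77219 to 124061 CPM in AM608 (median 95733). These ranges overlapped nearly fully, and the log2 fold change was 0.05 (SE 0.171, 95% interval -0.30 to 0.41). Its 1-base variant tRF-18-8R6546D2 ran from 20303 to 53384 CPM in AM132 (median 36522) and from 39456 to 56800 CPM in AM608 (median 47473). Of the 8 AM132 libraries, 6 lay below the AM608 median, and the change was -0.40 on the log2 scale (SE 0.176, edgeR unadjusted p = 0.0326, adjusted p = 0.207). This was the fragment with an unadjusted p under 0.05.

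Leucine fragment tRF-18-HR0VX6D2 ran from 18040 to 28565 CPM in AM132 (median 22279) and from 20831 to 35836 in AM608 (median 27885). The groups overlapped, with a log2 fold change of -0.28 (SE 0.180). Glutamine fragment tRF-18-H9R8B7D2 ran from 12795 to 35986 CPM in AM132 (median 21568) and from 10741 to 31071 in AM608 (median 25214). Its log2 fold change was -0.03 (SE 0.242), and its highest AM132 value was library 8. Cysteine fragment tRF-18-HSRVK7D2 ran from 10348 to 21525 CPM in AM132 (median 18142) and from 12569 to 26257 in AM608 (median 18627), with a log2 fold change of -0.19 (SE 0.185).

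AM608 against RCD compares obese, control-injected liver with lean, uninjected liver. Most estimates were higher in AM608: 17 of 20 were above 0, with a median log2 fold change of 0.32, while 140 of the 295 tested tRFs were above 0, with a median of -0.03. Of these, 2 fragments were called, both higher (2 of 20, beside 4.41% of all tested tRFs called in either direction and 1.69% called higher). An unadjusted edgeR p under 0.05 was reached by 9 of the 20, beside 74 of the 295.

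Serine fragment tRF-18-HRH7MSD2 ran from 1534 to 6112 CPM in AM608 (median 4786) and from 1310 to 3276 CPM in RCD (median 1485). All 8 AM608 libraries lay above the RCD median and 5 above the highest RCD library, which was RCD library 1. Its counts were 59 to 207 per library in AM608 and 25 to 63 in RCD. AM608 exceeded RCD by 1.26 on the log2 scale (SE 0.307, 95% interval 0.62 to 1.90, edgeR adjusted p = 0.0166), and it was called in each of the 24 fits that left out 1 library (1.18 to 1.42). Without RCD library 3 it was 1.23 (edgeR adjusted p = 0.0179).

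Tyrosine fragment tRF-18-HSQSD2D2 ran from 7178 to 13320 CPM in AM608 (median 9190) and from 5027 to 7610 CPM in RCD (median 6568). Of the AM608 libraries, 7 lay above every RCD library. AM608 exceeded RCD by 0.59 on the log2 scale (SE 0.142, 95% interval 0.29 to 0.88, edgeR adjusted p = 0.0166), and all 24 fits that left out 1 library called it. It was not called when all 8456 tRFs were kept (0.87, edgeR adjusted p = 0.15) or when the filter was a mean CPM of 10 (0.73, adjusted p = 0.163). Its partner tRF-18-YSQSD2D2, which differs in the first base, ran from 12041 to 20867 CPM in AM608 (median 16779) and from 7779 to 20176 CPM in RCD (median 10137). The highest RCD value was library 3, and the next was 12320 CPM. With all libraries the estimate was 0.57 (SE 0.173, edgeR adjusted p = 0.0537). It was called by DESeq2 (0.54, adjusted p = 0.0348), by limma voom (0.61, adjusted p = 0.0319), by edgeR with library totals (0.69, adjusted p = 0.0325) and without RCD library 3 (0.77, edgeR adjusted p = 0.00175).

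Among the other tested fragments the largest estimates were those of tRF-18-XRPN46D2 (1.15, edgeR adjusted p = 0.0723), the threonine fragment tRF-18-HRF8X7D2 (0.78, adjusted p = 0.121) and tRF-18-S5S8R6D2 (0.69, adjusted p = 0.153). None of them was called. The 5 most counted fragments had log2 fold changes of -0.17 (tRF-18-8R6Q46D2), 0.18 (tRF-18-8R6546D2), 0.11 (tRF-18-HR0VX6D2), 0.58 (tRF-18-H9R8B7D2) and 0.29 (tRF-18-HSRVK7D2), and none was called. In RCD these 5 ran from 72552 to 140726 CPM (median 110472), 31107 to 54397 (median 41562), 14641 to 36737 (median 26551), 8657 to 25047 (median 14547) and 11130 to 20126 (median 15249), each overlapping AM608. The lowest estimate of the 20 was the glutamate fragment tRF-18-4RRWRBD2 at -0.28.

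The count of calls depended on the scale. In another fit, tRF counts were scaled to the library's TMM-scaled microRNA counts instead of to other tRFs. The median of all tested tRFs moved from -0.03 to 0.32, and 44 of the 295 were called in either direction. Of the 20 fragments, 14 were called higher, with a median of 0.69. Under both scalings the fragments' median lay above that of all tested tRFs. Without AM132 library 8 the count called was 5, beside 31 of all 313 tested tRFs. Those added were tRF-18-YSQSD2D2 (0.61, edgeR adjusted p = 0.0254), tRF-18-XRPN46D2 (1.18, adjusted p = 0.04) and tRF-18-HR0P1SD2 (0.56, adjusted p = 0.043). Without both that library and RCD library 3 it was also 5, beside 44 of all 307 tested tRFs. Here tRF-18-YSQSD2D2 (0.74, edgeR adjusted p = 0.00105), tRF-18-H9R8B7D2 (0.70, adjusted p = 0.0316) and tRF-18-XRPN46D2 (1.15, adjusted p = 0.0438) were added. Without AM608 library 7 it was 4, beside 16 of all 312 tested tRFs.

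**Figure D3:**
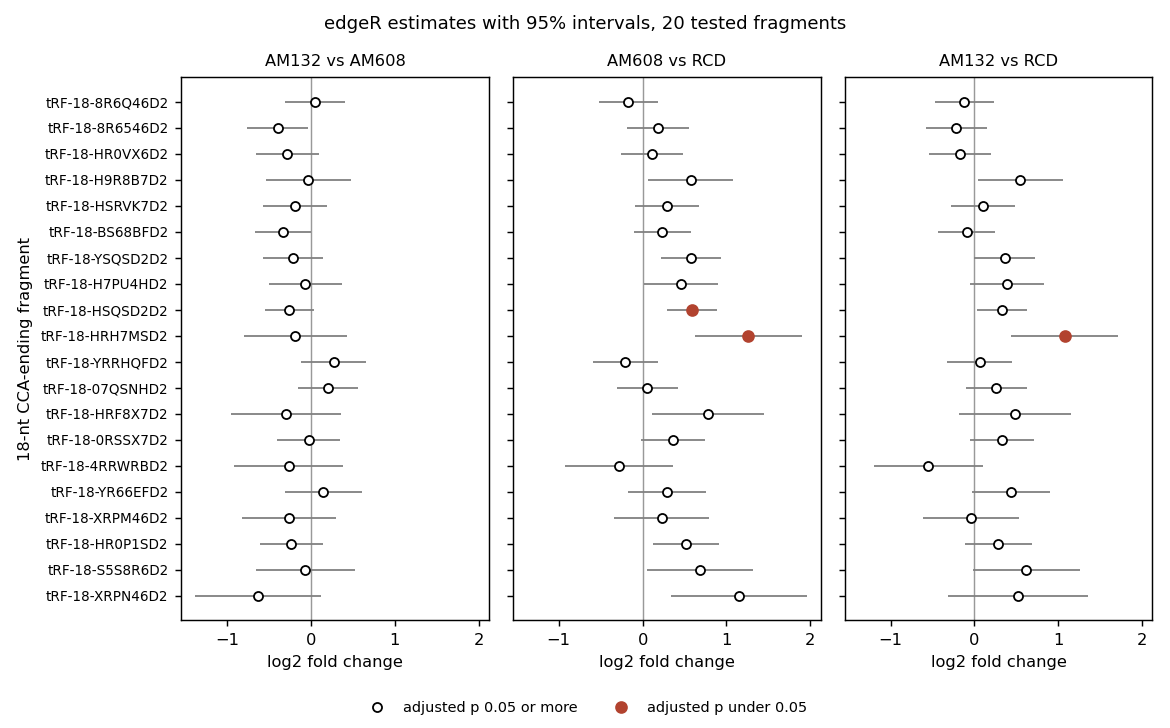
edgeR log2 fold changes (points) with 95% intervals (lines) of the 20 tested fragments in the 3 comparisons; filled points have an adjusted p under 0.05. Filled points are tRF-18-HRH7MSD2 (1.26 and 1.08 against RCD) and tRF-18-HSQSD2D2 (0.59, AM608 against RCD), and 16 of 20 points lie below 0 in the first panel.

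AM132 against RCD compares obese liver that received the oligonucleotide against miR-132 with lean, uninjected liver, and shares the RCD libraries with the comparison above. One of the 20 fragments was called, higher, beside 15.3% of all tested tRFs called in either direction and 6.1% called higher. Estimates were above 0 for 14 of 20, with a median of 0.31, while the median of all tested tRFs was 0.03. The called fragment was again tRF-18-HRH7MSD2, which ran from 1348 to 5241 CPM in AM132 (median 3719), against 1310 to 3276 in RCD. Of the AM132 libraries, 7 lay above the RCD median and 4 above the highest RCD library. AM132 exceeded RCD by 1.08 on the log2 scale (SE 0.306, edgeR adjusted p = 0.0157), with 0.98 to 1.28 over the 24 fits that left out 1 library, each of which called it. Without RCD library 3, 3 fragments were called, beside 62 of all 311 tested tRFs. Those added were tRF-18-YSQSD2D2 (0.54, edgeR adjusted p = 0.00927, against 0.36 and 0.161 with all libraries) and tRF-18-H9R8B7D2 (0.69, adjusted p = 0.0444, against 0.55 and 0.133).

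For tRF-18-HSQSD2D2, AM132 ran from 6961 to 9702 CPM (median 7825), between the other groups, and its estimate against RCD was 0.33 (SE 0.142, edgeR adjusted p = 0.119). Without RCD library 3 and AM132 library 8 it was called (0.41, edgeR adjusted p = 0.0447). Against AM608 it was -0.26 (SE 0.141, adjusted p = 0.313). For tRF-18-HRH7MSD2 the difference between AM132 and AM608 was -0.18 (SE 0.297, 95% interval -0.80 to 0.43). The top 2 fragments and tRF-18-HR0VX6D2 had estimates of -0.12, -0.21 and -0.17 against RCD. Under microRNA scaling, all tested tRFs had a median of 0.65, and 145 of the 295 were called in either direction. Of the 20 fragments, 17 were called higher in AM132 than in RCD, with a median of 0.88. On that scale 19 of the 20 estimates were above 0. Those of tRF-18-8R6Q46D2, tRF-18-HR0VX6D2 and the valine fragment tRF-18-BS68BFD2 turned from below to above 0 and were called, and those of tRF-18-8R6546D2 (0.34) and tRF-18-XRPM46D2 (0.62) turned and were not called.

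**Figure D4:**
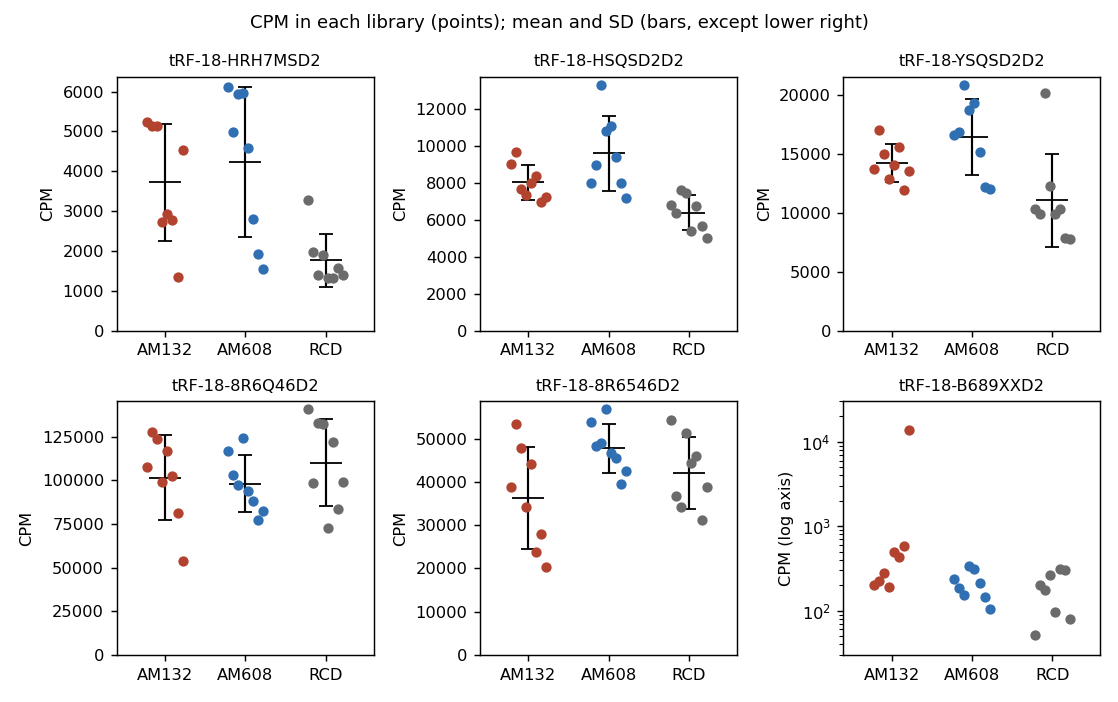
CPM in each library for tRF-18-HRH7MSD2, tRF-18-HSQSD2D2, tRF-18-YSQSD2D2, tRF-18-8R6Q46D2, tRF-18-8R6546D2 and tRF-18-B689XXD2 (log axis); points are libraries, bars the mean and SD of 8. For tRF-18-HSQSD2D2, 7 of 8 AM608 points lie above all RCD points, and for tRF-18-B689XXD2 a single AM132 point stands at 13937 CPM.

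Among the 26, 6 pairs differ by 1 base, and the share of each member within its pair does not depend on how libraries are scaled. The 2 largest pairs are shown with the differing base in capitals. Positions are counted from 1 at the 5′ end, and the more counted sequence is named first.
tRF-18-8R6Q46D2: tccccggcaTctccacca
tRF-18-8R6546D2: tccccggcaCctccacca
tRF-18-YSQSD2D2: Ttccggctcgaaggacca
tRF-18-HSQSD2D2: Atccggctcgaaggacca
The alanine pair differs by T10C, in the acceptor stem, and the tyrosine pair by T1A, in the T loop. The other 4 pairs were tRF-18-HSRVK7D2 and tRF-18-H6RVK7D2 (G5A), tRF-18-BS68BFD2 and tRF-18-BS6PBFD2 (G9A), tRF-18-XRPM46D2 and tRF-18-XRPN46D2 (C10T), and tRF-18-HR0P1SD2 and tRF-18-SR0P1SD2 (A1G). The less counted sequence held 26.1% ± 3.18 (SD, n = 8) of the alanine pair in AM132, where libraries ran from 18.9 to 29.5%. In AM608 it held 32.9% ± 1.15 (SD, n = 8), from 31.4 to 34.1%, and in RCD 28.0% ± 4.74 (SD, n = 8), from 20.5 to 37.9%. Every AM608 library thus lay above every AM132 library. Of the RCD libraries, 6 lay at 27.1 to 28.2% and library 3 held the 20.5%, all below AM608. RCD library 5 held the 37.9%, above every AM608 library, so the RCD range spanned that of AM608. This pair was singled out after its values were seen, so no test is given. In the tyrosine pair the share of tRF-18-HSQSD2D2 was 36.1% ± 1.78 (SD, n = 8) in AM132, 36.8% ± 2.38 (SD, n = 8) in AM608 and 37.5% ± 4.51 (SD, n = 8) in RCD, differences smaller than the spread between libraries. The valine variant tRF-18-BS6PBFD2, with 130 counts in all, held 0.604% ± 0.446 (SD, n = 8) of its pair in AM132 and 1.53% ± 0.492 (SD, n = 8) in AM608. RCD, at 1.08% ± 0.745 (SD, n = 8) and from 0 to 2.08%, spanned both, and the variant was not counted in 1 AM132 and 1 RCD library.

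CCA-ending tRFs of any length were mostly 18 nt: this length held 72.4% of their counts and 22 nt held 13.4%. For 24 of the 26 fragments the 18-nt form held most of the counts with the same 3′ end and 18 nt or longer, with a median of 91.3%. The exceptions were the glutamate fragment tRF-18-4RRWRBD2 (9.82%) and tRF-18-YR66EFD2 (28.7%), whose 22-nt forms held 84.3% and 63.7% of the counts of both lengths. The 24 include tRF-18-B689XXD2 (54.3%), most of whose 18-nt counts came from AM132 library 8, and whose 22-nt forms held 79.0% of both lengths in AM608 and 79.9% in RCD. For 11 tested fragments a 22-nt form was tested too. The estimates of the 2 lengths had opposite signs in 9 of these 11 pairs in AM608 against RCD, and in 4 in AM132 against RCD. The serine pair was among them in both. The 22-nt form of this called fragment is printed with the 18-nt part in capitals.
tRF-22-WB8689SV2: tcgaATCCCATCCTCGTCGCCA

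Its counts were 8 to 33 per library in RCD, 9 to 28 in AM608 and 14 to 28 in AM132, a similar range in all groups, while counts of the 18-nt form were 25 to 63 in RCD libraries, 59 to 207 in AM608 libraries and 55 to 184 in AM132 libraries. In CPM it ran from 363.1 to 1363 in RCD (median 702.9) and from 275.0 to 803.5 in AM608 (median 470.5), overlapping, with an estimate of -0.70 (SE 0.267, edgeR adjusted p = 0.1). Against RCD, AM132 had -0.33 (SE 0.264, adjusted p = 0.414). The 22-nt form made up 16.4% ± 7.92 (SD, n = 8) of both lengths in AM132, 12.5% ± 8.24 (SD, n = 8) in AM608 and 30.3% ± 11.1 (SD, n = 8) in RCD, with overlapping ranges.

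Across the 11 pairs the 18-nt estimate lay above the 22-nt estimate in 11 for AM608 against RCD (medians 0.29 and -0.43), in 0 for AM132 against AM608 (-0.21 and 0.38) and in 8 for AM132 against RCD (0.36 and -0.04). The first 2 comparisons share the AM608 libraries. Over all 24 tested 22-nt CCA-ending tRFs the medians were -0.38, 0.37 and 0.00 in that order, with 1 called, lower in AM132 than in AM608. The 32 tested 18-nt tRFs without CCA had medians of -0.02, -0.07 and -0.04. Among CCA-ending counts of 18 and 22 nt, the 22-nt share was 16.9% ± 3.98 (SD, n = 8) in AM132, 13.4% ± 4.78 (SD, n = 8) in AM608 and 17.01% ± 5.84 (SD, n = 8) in RCD, and the ranges overlapped.

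**Figure D5:**
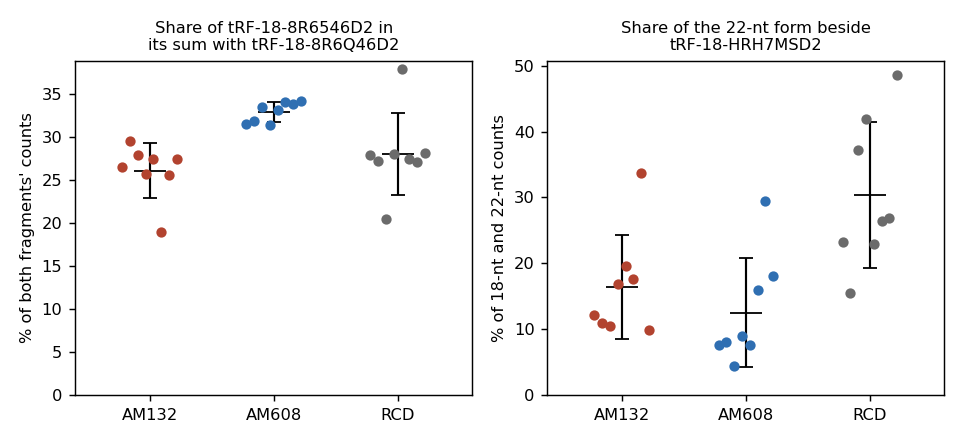
Left, share of tRF-18-8R6546D2 in its sum with tRF-18-8R6Q46D2; right, share of the 22-nt form in its sum with tRF-18-HRH7MSD2; both in percent, points are libraries, bars the mean and SD of 8. All AM608 points (31.4 to 34.1%) lie above all AM132 points on the left, and RCD has the highest mean (30.3%) on the right.

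This 22-nt share also differed with the library number in the labels, a split made after seeing the data. AM132 libraries 1 to 4 had 11.7 to 17.7% and libraries 5 to 8 had 17.8 to 24.4%. AM608 had 5.96 to 12.3% and 13.5 to 19.5%, and RCD 10.6 to 13.9% and 16.4 to 26.4%. The 2 sets did not overlap in any group. In each group, libraries 7 and 8 held the lowest shares of 18-nt fragments among CCA-ending counts (62.1 to 70.3%, against 69.8 to 81.0% in libraries 1 to 6 of all groups). The called serine fragment also differed by number: tRF-18-HRH7MSD2 averaged 5748 CPM ± 514 (SD, n = 4) in AM608 libraries 1 to 4 and 2713 ± 1358 (SD, n = 4) in libraries 5 to 8, and in RCD 2133 ± 805 and 1398 ± 124. Within libraries 1 to 4 the difference of AM608 from RCD was 1.41 (edgeR adjusted p = 0.0222), and within libraries 5 to 8 it was 0.93 (edgeR adjusted p = 0.231). In AM132 against RCD it was 1.08 (adjusted p = 0.0489) and 1.04 (adjusted p = 0.0916). For tRF-18-HSQSD2D2 in AM608 against RCD these were 0.52 (adjusted p = 0.18) and 0.63 (adjusted p = 0.16). All 3 groups hold each number, but the labels do not say that a number stands for the same thing in each group. The sample order in the deposited labels runs through the groups in turn, so that order cannot be told apart from the groups. The part of the number in these results was not tested.

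A single library held most counts of the initiator methionine fragment tRF-18-B689XXD2. Of its 736 counts, AM132 library 8 held 567, at 13937 CPM, and the next highest library had 588.3 CPM. The other groups ran from 52.0 to 336.1 CPM. Library 8 included, 4 AM132 libraries lay above the highest AM608 and the highest RCD library. The fragment did not pass the low-count filter and was not tested. The same holds for tRF-18-H6RVK7D2, tRF-18-S7PVRSD2, tRF-18-SR0P1SD2, tRF-18-HR0ZMSD2 and tRF-18-BS6PBFD2. Both alanine fragments and the cysteine fragment tRF-18-HSRVK7D2 had their lowest AM132 values in AM132 library 8. So did tRF-18-H7PU4HD2, tRF-18-07QSNHD2, tRF-18-YRRHQFD2, tRF-18-4RRWRBD2, tRF-18-HR0P1SD2 and tRF-18-S5S8R6D2 among the tested fragments. Their highest AM132 values there had tRF-18-H9R8B7D2, tRF-18-HRF8X7D2, tRF-18-XRPM46D2 and tRF-18-XRPN46D2.

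Over the 24 libraries the log2 CPM of the 20 tested fragments were mostly positively correlated, with a median Pearson r of 0.45 over 190 pairs and 180 pairs above 0. The closest pairs were the tyrosine pair (0.88), the leucine and valine fragments tRF-18-HR0VX6D2 and tRF-18-BS68BFD2 (0.87) and the glutamine and threonine fragments tRF-18-H9R8B7D2 and tRF-18-HRF8X7D2 (0.87). All values share the libraries and their scaling factors, so these are descriptions. Within a group the coefficient of variation was lowest for tRF-18-YSQSD2D2 in AM132 (11.4%) and highest for tRF-18-XRPN46D2 in AM608 (57.0%). Outside the 67 fragments, the tRFs most like the top fragment tRF-18-8R6Q46D2 over the 24 libraries were a 16-nt tRF (Pearson r of 0.77), tRF-18-W96KM80E (0.68), tRF-20-F6RE987S (0.63), tRF-18-I958M80E (0.62) and tRF-27-Q1Q89P9L842 (0.58).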

How the data were processed

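The values were raw read counts per tRF and per microRNA in 24 liver libraries, as deposited by the authors. Per the submitters' processing notes, FastQC was used. Aligner, trimming, build and read assignment were not given in the sources used here. Modified tRNA bases and ends can hinder ligation and reverse transcription, and PCR reads without molecular identifiers are not independent molecules. Names were decoded to sequence, and all 8456 encoded back to themselves. All 84 library pairs within groups differed beyond counting error (chi-square over its degrees of freedom at least 1.88).

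The whole tRF table was fitted with edgeR 4.0.16 in R 4.3.3 (robust quasi-likelihood F test, TMM factors, filterByExpr, group as the only term, 24 libraries), which tested 295 tRFs, 20 of them 18-nt CCA-ending. Benjamini-Hochberg adjustment ran over all 295, at 0.05. The 95% intervals are the estimate and its standard error with the residual degrees of freedom. DESeq2 1.42.0 and limma 3.58.1 voom were alternatives, with other scalings and filters, a replicate block and libraries left out. The fits were tested on simulated data. The deposited counts set the precision: low fragments had few counts per library. Fragments with 100 or more counts were named singly, values per library were given for the 5 most counted and for called fragments, and others were added after their values were seen. The fragments, lists and comparisons were chosen with earlier results of these data known.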

Additional observations from a re-analysis of the deposited data

Results flagged for a closer look

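In each group of 8 the highest or lowest library was compared with its nearest neighbour by Dixon's test at the 95% level; 13 of 90 looks stood out, where chance gives about 1 in 20. Those in AM132 library 8 were tRF-18-B689XXD2 at 13940 CPM (next 588.3), tRF-18-XRPM46D2 at 1917 CPM and tRF-18-S7PVRSD2 at 589.9 CPM, all high, tRF-18-YRRHQFD2 at 1524 CPM, low, and the summed share of the 67 fragments in all tRF counts at 10.92%, low (next 21.44%). In AM132 library 2, tRF-18-H7PU4HD2 stood high at 22110 CPM and tRF-18-HR0ZMSD2 at 541.5 CPM. In RCD library 5, tRF-18-H6RVK7D2 (630.9 CPM) and tRF-18-S7PVRSD2 (679.4 CPM) stood high and tRF-18-S5S8R6D2 (97.06 CPM) low. Single libraries also stood high for tRF-18-YSQSD2D2 (RCD library 3, 20180 CPM), for tRF-18-HRH7MSD2 (RCD library 1, 3276 CPM) and for tRF-18-4RRWRBD2 (AM608 library 4, 2227 CPM).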

How the results depend on the processing

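Depth limits the low fragments. Brackets give the calls among all tested tRFs in either direction. In AM608 against RCD, 2 fragments were called in the main fit (13 of 295). With library totals it was 4 (19 of 295), with microRNA scaling 14 (44 of 295) and with DESeq2 4 (30 of 295). With no filter it was 1 (5 of 8456), and with a mean CPM of at least 10 it was 1 (3 of 2251). Without RCD library 3 and AM132 library 8 it was 5 (44 of 307). Over single libraries left out the count ran from 2 to 5, with 5 without AM132 library 8 (31 of 313). In AM132 against RCD 1 was called (45 of 295), and 17 with microRNA scaling (145 of 295). With no filter it was 2 (191 of 8456). Added there was tRF-18-B689XXD2, with 567 of its 642 AM132 counts in AM132 library 8. Without both libraries the count was 3 (54 of 307). Over single libraries left out it ran from 1 to 3, with 3 without RCD library 3 (62 of 311) and 2 without RCD library 5 (45 of 308). In AM132 against AM608 the count was 0 (15 of 295). With no filter it was 2 (208 of 8456): tRF-18-BS6PBFD2, and tRF-18-IR9NY5D2, whose 13 counts are all in AM132 library 8. It was 0 in every fit that left out 1 library. Using libraries numbered 1 to 4 or 5 to 8 alone was chosen after seeing the data, and fewer samples remained. It gave 1 (2 of 294) and 0 (0 of 361) called in AM608 against RCD. In AM132 against RCD it gave 1 (11 of 294) and 0 (19 of 361), and in AM132 against AM608 0 (1 of 294) and 0 (2 of 361). Set against raw microRNA totals, the log2 difference in the sum moved from 0.24 to 0.54 in AM608 against RCD. In AM132 against RCD it moved from 0.08 to 0.42, and was -0.03 as a share of CCA-ending counts and -0.04 in libraries 5 to 8. Over single libraries left out, the difference in the share of all tRF counts ran from -0.21 to -0.003 for AM132 against AM608. It ran from 0.20 to 0.30 for AM608 against RCD and from 0.03 to 0.24 for AM132 against RCD. With microRNA scaling, 3 estimates of AM132 against RCD changed sign and were called: tRF-18-8R6Q46D2 (0.44), tRF-18-BS68BFD2 (0.49) and tRF-18-HR0VX6D2 (0.44). Of 2158 alternative values for the 20 tested fragments, 2097 kept their direction or stayed uncalled, 52 became called and 6 lost the call; 82 uncalled ones changed sign. For changes other than the scaling, filter and library choices, the cause was not tested.

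Same-numbered libraries of different groups had a median correlation of deviations of 0.17, with 13 of 24 pairs over 0.1. Other pairs had -0.03, with 54 of 168 over 0.1. In 11 of 48 looks, each among the 8 libraries of another group, a library correlated best with its own number. Same-numbered libraries were thus somewhat more alike than others. The labels state no pairing, so the main fit did not pair them, and a fit with a replicate block is given beside it. With the replicate block, 3 fragments were called in AM608 against RCD (19 of 295 tRFs). It called 1 in AM132 against RCD (33 of 295) and 0 between AM132 and AM608 (16 of 295). The added fragment, in AM608 against RCD, was tRF-18-YSQSD2D2 (0.60, edgeR adjusted p = 0.011). The within-number mean of the summed share gave -0.16, 0.24 and 0.08.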

Other observations

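Set side by side by library number, tRF-18-HRH7MSD2 and tRF-18-HSQSD2D2 were each higher in AM608 than in RCD in 8 of 8 numbers. Both fragments had been called higher in this comparison from the same libraries, so their counts by number are no separate support. The 22-nt share of 18- and 22-nt CCA-ending counts was lower in AM608 than in RCD in 8 of 8 numbers, with a mean difference of -3.61 percentage points (SD 2.09), and lower in AM608 than in AM132 in 7 of 8, with a mean difference of 3.54 points for AM132 minus AM608 (SD 2.65). The share of 18-nt fragments among CCA-ending counts was lower in AM132 than in AM608 in 8 of 8 numbers, with a mean difference of -4.59 points (SD 2.06). These counts were made after the dependence on the number had been seen, and carry no test.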
